A study of Mus musculus with 38 samples.

Results

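The aryl hydrocarbon receptor (AhR) and NRF2 are transcription factors that respond to foreign and reactive compounds. Ligand-bound AhR leaves its cytosolic chaperones, pairs with ARNT in the nucleus and switches on drug-metabolising enzymes, CYP1A1 first among them. NRF2 is held and degraded by KEAP1 until electrophiles modify KEAP1, and it then raises enzymes of glutathione and thioredoxin metabolism. In brain, CYP1A1 and CYP1B1 are known mainly from vessels and barrier epithelia, and NRF2 targets mainly from glia. The 10 genes described here were listed by symbol as the receptor gene Ahr, its targets Cyp1a1, Cyp1b1 and Tiparp, the target Nqo1 that both factors share, and the NRF2 targets Hmox1, Gclm, Gclc, Srxn1 and Txnrd1. All 10 were found by Ensembl gene identifier among the 48709 genes counted, and the comparison made was between mice fed chow with the compound anle138b and mice fed placebo chow.

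Hippocampal RNA of 38 C57BL/6 mice was sequenced. APPPS1ΔE9 mice are a transgenic model of amyloid deposition, and their WT littermates carry no transgene. In the pre-plaque cohort, treatment ran for 4 months from 2 months of age, and the mice were analysed at 6 months. It held 4 mice on placebo and 4 on anle138b of each genotype. In the post-plaque cohort, treatment ran for 4 months from 6 months of age, and the mice were analysed at 10 months. It held 5 WT mice on placebo, 5 WT mice on anle138b, 5 APPPS1ΔE9 mice on placebo and 7 APPPS1ΔE9 mice on anle138b. Levels are given as CPM, the usual depth-normalised read count, with library sizes scaled by the TMM method, and differences as log2 fold changes. A gene was called where the Benjamini-Hochberg adjusted p of edgeR's quasi-likelihood test over all genes was under 0.1.

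Total counts were between 15847985 and 31895808 per mouse. In 4 libraries, those of pre-plaque WT mice on placebo, the title names WT and another label names the transgenic line. They were used as WT by their titles. The mice are described as male, yet 12 of the 38 libraries held Xist at 1170 CPM or more with a Y-linked sum of at most 1.87 CPM. The other 26 held a Y-linked sum of at least 172 CPM, in 19 of 20 APPPS1ΔE9 and 7 of 18 WT mice, and in 14 of 20 anle138b-treated and 12 of 18 placebo-treated mice. The sum of 6 choroid plexus markers was between 32.6 and 713 CPM in 27 mice and between 3963 and 7964 CPM in the other 11. These 11 were 10 pre-plaque mice, 4 of them on placebo and 6 on anle138b, and 1 post-plaque APPPS1ΔE9 mouse on anle138b. In the pre-plaque cohort, every mouse with a high sum was numbered 15 to 41 and every mouse with a low sum 71 to 84. What the numbers stand for is not stated. The choroid plexus is the epithelium next to the hippocampus that makes cerebrospinal fluid, and Ttr, its most abundant marker here, ranged from 12.9 to 7509 CPM. The hippocampal neuron markers Prox1 and Neurod6 were found in every mouse, at 46.8 CPM or more and 134 CPM or more. Chow groups were also spread unevenly over sequencing lanes, and only 3 of the 4 combinations of cohort and genotype held mice of both chows on a shared lane. Within each cohort and chow, no lane held mice of both genotypes, so genotype and lane cannot be told apart there.

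The letters that AhR and NRF2 are known to read were searched in the 250 bases before the transcription start, taken from RefSeq promoters of GRCm38.p6, of the 7 members with an entry, Cyp1a1, Cyp1b1, Tiparp, Nqo1, Gclm, Srxn1 and Txnrd1. Both strands were searched for the core of the AhR response element, GCGTG, and for the core of the antioxidant response element, TGACNNNGC, in which N is any base. These 7 genes had 9 promoter entries, since Txnrd1 had several. The letters GCGTG were present in 6 of the 7 genes, in 8 of the 9 entries, and in 28.2% of 32851 mouse promoters of this length. The letters TGACNNNGC were present in Gclm and Txnrd1, in 2 of the 9 entries, and in 10.2% of all promoters. These shares were not matched for base composition. The bases G and C made up from 47.2%, in an entry of Txnrd1, to 78.4%, in Gclm, of the members' windows. Nqo1 held neither of these runs of letters in this window. The upstream sequence of Cyp1a1, the member with the largest log2 difference between chows over all mice, is printed whole for chr9:57697363-57697612 on the plus strand, and the following lines give 1 match with 10 bases on either side in each other gene, with the core in capitals and each sequence on the strand on which the core reads 5′ to 3′. Gclm in its single window and Txnrd1 over its several windows also held 3 matches to GCGTG each. These were counted above and not printed, since these genes are shown for TGACNNNGC. These are matches of letters, and binding was not measured.
Cyp1a1: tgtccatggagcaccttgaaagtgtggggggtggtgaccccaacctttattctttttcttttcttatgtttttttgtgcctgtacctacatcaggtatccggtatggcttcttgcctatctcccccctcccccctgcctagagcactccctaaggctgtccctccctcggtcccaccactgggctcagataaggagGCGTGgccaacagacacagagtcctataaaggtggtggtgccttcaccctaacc
Cyp1b1, chr17:79715123-79715147, plus strand: agggggtgggGCGTGaggggcggga
Tiparp, chr3:65528267-65528291, minus strand: cctcccgtgcGCGTGctccggacgg
Srxn1, chr2:152105420-152105444, minus strand: gtgacgcacaGCGTGgtgactcagg
Gclm, chr3:122245413-122245441, minus strand: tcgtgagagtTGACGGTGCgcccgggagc
Txnrd1, chr10:82859104-82859132, minus strand: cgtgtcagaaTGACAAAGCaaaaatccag

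Per kilobase of exon, the mean level over all mice was highest for Srxn1 at 32 CPM, followed by Gclc at 18.8 CPM, Txnrd1 at 10.0 CPM and Gclm at 8.54 CPM. Tiparp at 4.65 CPM, Nqo1 at 4.12 CPM and Hmox1 at 3.84 CPM per kilobase came next and overlapped over their mice. Ahr stood at 1.96 CPM per kilobase and Cyp1b1 at 0.833 CPM, while Cyp1a1 was lowest at 0.0753 CPM. Srxn1 did not overlap with Gclc, nor Gclc with Txnrd1, whereas the ranges of Txnrd1 and Gclm overlapped. The members also differed in how much they varied. The coefficient of variation over the 38 mice was 3.64% for Gclc, 6.38% for Txnrd1, 8.28% for Gclm and 11.3% for Srxn1, against 38.2% for Nqo1, 34.7% for Cyp1b1 and 93.4% for Cyp1a1.

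No member was called between anle138b and placebo in any cohort and genotype. Among WT mice, 0 of the 9 members tested were called in the pre-plaque cohort, where 0.0% of 16766 genes were, and 0 of 9 in the post-plaque cohort, where 0.0% of 16986 genes were. Among APPPS1ΔE9 mice, 0 of 9 were called in the pre-plaque cohort, with 0.0529% of 17009 genes called, and 0 of 9 in the post-plaque cohort, with 0.0% of 17110 genes called. With all mice in a single fit that kept a level for each cohort and genotype, 0 of 10 members were called, with 0.011% of 18232 genes called. DESeq2 called 0 members in these comparisons as well. It called 1.2% of all genes in pre-plaque APPPS1ΔE9 mice and 0.0% in each of the others. At an unadjusted p under 0.05 there was none of the 9 members within a cohort and genotype. The shares of all genes under it were 1.85% in pre-plaque WT, 13.1% in pre-plaque APPPS1ΔE9, 1.25% in post-plaque WT and 1.48% in post-plaque APPPS1ΔE9 mice. In the fit over all mice, where 3.53% of all genes were under it, none of the 9 members other than Cyp1a1 was. Cyp1a1 passed the filter on low counts only through mice on anle138b, and no count is read from it. No member had chow groups that did not overlap, which 1.62% of all genes had in pre-plaque WT, 6.02% in pre-plaque APPPS1ΔE9, 0.302% in post-plaque WT and 0.0494% in post-plaque APPPS1ΔE9 mice. The median log2 difference of the 10 members over all mice was 0.01, and that of all genes was 0.00.

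**Figure D1:**
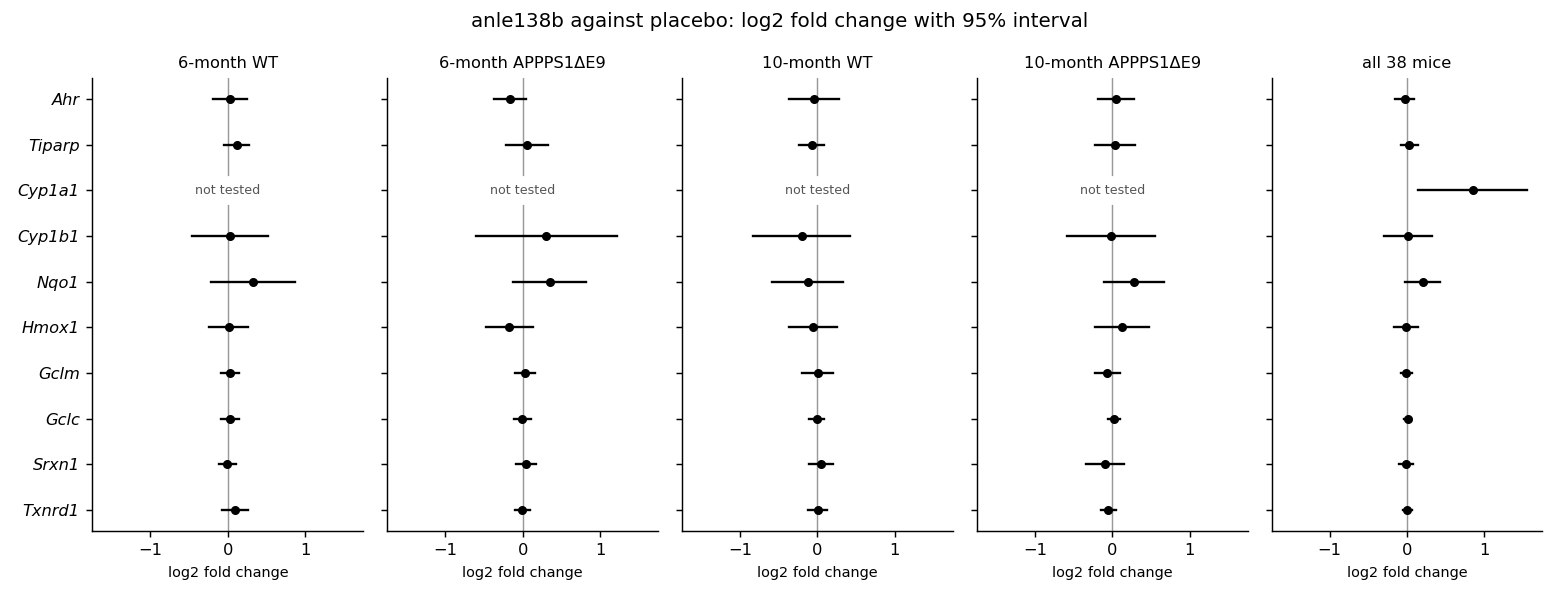
Log2 fold change of anle138b over placebo for the 10 genes (points) with its 95% interval (lines), for each cohort and genotype and for all 38 mice. Most points lie close to 0 with narrow intervals, Nqo1 lies to the right of 0 in 4 of the 5 panels, and Cyp1a1 has the widest interval in the fit over all mice. Where Cyp1a1 is marked as not tested, its counts were too low for the filter. Over all mice it passed the filter only through mice on anle138b, so its interval there is a description and no test.

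CYP1A1 is the enzyme through which an activated Ah receptor is most often read, since it oxidises many of the receptor's own ligands. Its gene (ENSMUSG00000032315, chr9:57687928-57703824, plus strand) gave 196 reads in all 38 mice together. In pre-plaque WT mice the levels were 0.0400, 0.165, 0.143 and 0.136 CPM on placebo and 0.460, 0.455, 0.787 and 0.113 CPM on anle138b. In pre-plaque APPPS1ΔE9 mice they were 0.205, 0.0792, 0.0567 and 0.181 CPM on placebo and 0.531, 0.902, 0.294 and 0.0359 CPM on anle138b. In each genotype 3 of the 4 anle138b-treated mice lay above every placebo-treated mouse and the remaining mouse lay among or below them. In post-plaque WT mice the levels were 0.187, 0.272, 0.182, 0 and 0.166 CPM on placebo and 0.162, 0.196, 0.147, 0.160 and 0.0842 CPM on anle138b. In post-plaque APPPS1ΔE9 mice they were 0.0368, 0.124, 0.228, 0.281 and 0.0812 CPM on placebo, and on anle138b they ran from 0.0391 through a median of 0.0920 to 0.404 CPM over 7 mice. The chows thus overlapped at 10 months, apart from 1 anle138b-treated APPPS1ΔE9 mouse at 0.404 CPM that lay above the 10 placebo-treated mice.

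The ratio of the mean levels, anle138b over placebo, was 3.56 over the 16 pre-plaque mice and 0.976 over the 22 post-plaque mice. Over all mice the log2 fold change was 0.85 (SE 0.35), a fold of 1.80. Cyp1a1 reached 10 reads in 5 mice, all of them on anle138b, so it passed the filter on low counts through the anle138b groups, and the fitted values that include this filter are given as descriptions, with no test. Within single cohorts and genotypes it did not pass the filter. Without the filter the log2 fold change was 1.84 (SE 0.58, unadjusted p = 0.0058, adjusted p = 0.848) in pre-plaque WT mice, 1.72 (SE 0.77, unadjusted p = 0.0486, adjusted p = 0.523) in pre-plaque APPPS1ΔE9 mice, -0.10 (SE 0.54) in post-plaque WT mice and 0.05 (SE 0.57) in post-plaque APPPS1ΔE9 mice. In these fits 722 of 31827 genes in pre-plaque WT and 2997 of 31422 in pre-plaque APPPS1ΔE9 mice were at an unadjusted p under 0.05. As a description, the fitted difference between the cohorts was 1.79 lower at 10 months on the log2 scale (SE 0.66). Of the members other than Cyp1a1, none was at an unadjusted p under 0.05 for chow by cohort, where 3.44% of all genes were. Sequencing lane 4 was the only lane with several pre-plaque WT mice of both chows. There the anle138b-treated mice had 0.460 and 0.455 CPM against at most 0.165 CPM in the 4 placebo-treated mice. In pre-plaque APPPS1ΔE9 mice, chow and lane cannot be told apart, since placebo was all on lane 5 and anle138b all on lane 6. As descriptions over all mice, the log2 difference with lane within cohort as a covariate was 1.06 (interval -0.17 to 2.28). It was 0.997 (interval 0.0433 to 1.95) on lanes holding both chows. In mice with Y-linked expression it was 0.81 (interval -0.07 to 1.70).

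Cyp1a1 was high where anle138b and choroid plexus markers came together. The 7 anle138b-treated mice with the high choroid plexus sum had 0.294 to 0.902 CPM, that is 8 to 29 reads each, and the 31 other mice had 0 to 0.281 CPM, 0 to 7 reads each. The 4 placebo-treated mice with high choroid plexus sums were among these 31, at 0.0400 to 0.205 CPM. The sum was 3963 to 7694 CPM in these 4 and 4352 to 7964 CPM in the 7 on anle138b, and the placebo-treated mouse with the lowest sum also had the lowest Cyp1a1. The 13 anle138b-treated mice with low sums were at 0.0359 to 0.210 CPM and the 14 placebo-treated mice with low sums at 0 to 0.281 CPM. The mouse at 0.404 CPM in the post-plaque cohort was its single mouse with a high sum, at 4352 CPM. Both pre-plaque anle138b-treated mice that stayed low, at 0.113 and 0.0359 CPM, had choroid plexus sums of 251 and 161 CPM.

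This split of the mice was made after the values were seen, by a sum of 1000 CPM, which falls in a gap between 713 and 3963 CPM, so the following values describe it and test nothing. Among the 11 mice with high sums the fitted log2 difference of anle138b over placebo was 1.97 (SE 0.48), and among the 27 with low sums, without the filter, it was -0.33 (SE 0.34). The fitted difference between these was 2.22 (SE 0.58). None of the other 9 members was at an unadjusted p under 0.05 for chow by choroid plexus sum, where 2.37% of all genes were. All 6 choroid plexus markers were themselves higher on anle138b over all mice, with a median log2 difference of 0.92 and 0 of 6 called or at an unadjusted p under 0.05 by edgeR. Their sum ran from 181.5 to 7694 CPM on placebo and 250.7 to 7964 CPM on anle138b in pre-plaque WT mice, with 3 of 4 mice high on each chow. In pre-plaque APPPS1ΔE9 mice it ran from 62.8 through a median of 448 to 6663 CPM on placebo, with 1 of 4 high, and from 160.9 through a median of 6410 to 7486 CPM on anle138b, with 3 of 4 high. With these markers as a covariate, the difference of Cyp1a1 over all mice was 0.57 (SE 0.31). In a bulk sample, more cells of a type and more RNA per cell cannot be told apart. Nor can high and low choroid plexus sums be told apart from the ranges of mouse number in the pre-plaque cohort. The markers of vessel endothelium, another known site of CYP1A1, summed to 144 to 191 CPM in pre-plaque mice and overlapped between chows in every cohort and genotype.

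**Figure D2:**
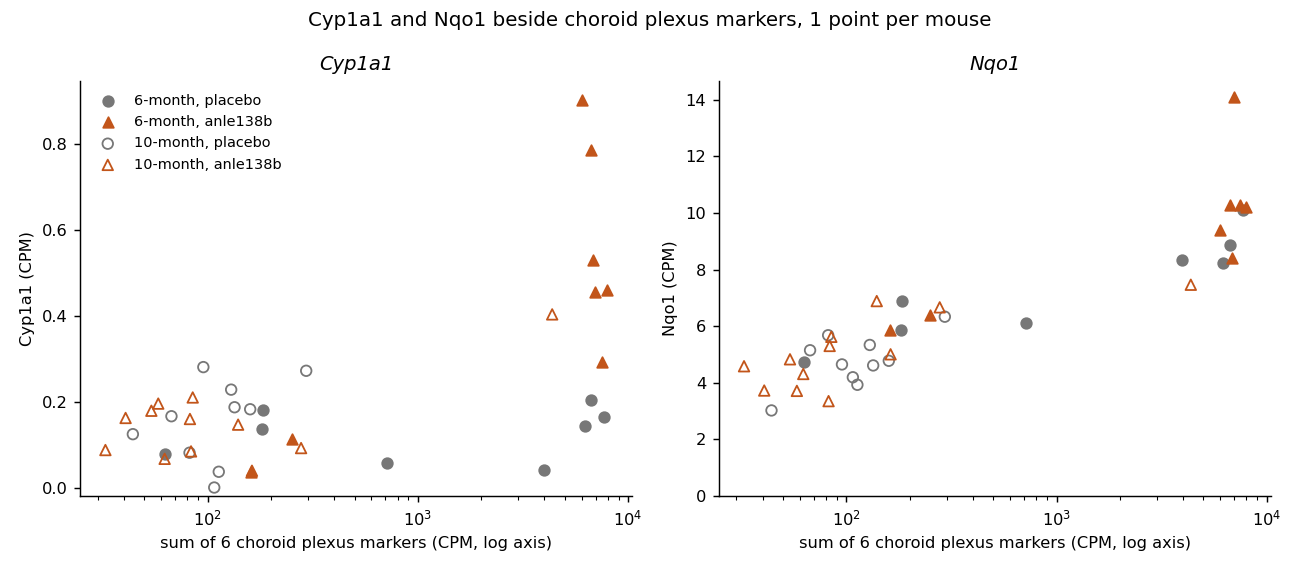
Levels of Cyp1a1 (left) and Nqo1 (right) in CPM against the summed CPM of 6 choroid plexus markers on a log axis, 1 point per mouse, with chow by colour and shape and cohort by filled (6-month) or open (10-month) points. For Cyp1a1, the 7 anle138b-treated mice on the right lie at 0.294 to 0.902 CPM above the 4 placebo-treated mice beside them at 0.0400 to 0.205 CPM, while on the left the chows mix; for Nqo1 both chows are higher on the right.

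NQO1 is a quinone reductase under the control of both factors. In pre-plaque WT mice Nqo1 (ENSMUSG00000003849, chr8:107388225-107403206, minus strand) was at 8.36, 10.1, 8.25 and 5.87 CPM on placebo and at 10.2, 14.1, 10.3 and 6.41 CPM on anle138b. In pre-plaque APPPS1ΔE9 mice it was at 8.86, 4.75, 6.13 and 6.88 CPM on placebo and at 8.43, 9.40, 10.3 and 5.86 CPM on anle138b. The anle138b-treated mice tended to the upper part of each range, and the groups overlapped. In post-plaque WT mice it was at 4.62, 6.34, 4.78, 4.20 and 5.15 CPM on placebo and at 3.73, 3.72, 6.89, 3.35 and 5.30 CPM on anle138b. In post-plaque APPPS1ΔE9 mice it was at 3.93, 3.03, 5.34, 4.65 and 5.68 CPM on placebo and ran from 4.31 through a median of 5.01 to 7.47 CPM on anle138b. The chows overlapped here too, and the levels of both were lower than at 6 months in most mice, a difference of cohorts that were collected apart and that was not tested.

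The log2 fold change of Nqo1 for anle138b was 0.33 (SE 0.24) in pre-plaque WT, 0.35 (SE 0.21) in pre-plaque APPPS1ΔE9, -0.13 (SE 0.21) in post-plaque WT and 0.28 (SE 0.18) in post-plaque APPPS1ΔE9 mice. Over all mice it was 0.20 (SE 0.11, unadjusted p = 0.0799, adjusted p = 0.9998), a fold of 1.15 with a 95% interval of 0.983 to 1.35. The choroid plexus sum moved with Nqo1 as well. Its correlation with the mean choroid plexus marker level, as deviations from the group means over 38 mice, was 0.76, the highest of any marker list for this gene. With these markers as a covariate the log2 fold change was 0.10 (SE 0.08, unadjusted p = 0.189, adjusted p = 1.0). In the split made after the values were seen, it was 0.28 (SE 0.12) in the 11 mice with high sums and 0.04 (SE 0.12) in the 27 with low sums. In pre-plaque APPPS1ΔE9 mice, 1 of 4 on placebo and 3 of 4 on anle138b had high sums.

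The receptor gene itself was at much the same level on both chows. Ahr (ENSMUSG00000019256, chr12:35497974-35535038, minus strand) lay between 9.95 and 16.3 CPM in the 18 placebo-treated mice, with a median of 11.9 CPM, and between 9.54 and 15.3 CPM in the 20 anle138b-treated mice, with a median of 11.6 CPM. The log2 fold change over all mice was -0.03 (SE 0.06), a fold of 0.98 with a 95% interval of 0.900 to 1.07. The largest value within a cohort and genotype was -0.16 (SE 0.09, unadjusted p = 0.105, adjusted p = 0.465), in pre-plaque APPPS1ΔE9 mice.

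Tiparp encodes an ADP-ribosyltransferase that is induced by AhR and represses it in turn. Tiparp (ENSMUSG00000034640, chr3:65528410-65555518, plus strand) was at 17.6 to 26.5 CPM in the 8 pre-plaque placebo-treated mice and at 20.1 to 24.9 CPM in the 8 pre-plaque anle138b-treated mice. In the post-plaque cohort it was at 16.5 to 22.7 CPM on placebo and 14.9 to 25.4 CPM on anle138b. The log2 fold change over all mice was 0.03 (SE 0.05), with a 95% interval of the fold of 0.944 to 1.1. Reads of the pseudogene 4931440P22Rik, which overlaps Tiparp on the opposite strand, could not be told apart if the counting ignored strand, which is not stated.

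CYP1B1 oxidises polycyclic compounds and steroids and is the constitutive member of the family in vessels and meninges. Cyp1b1 (ENSMUSG00000024087, chr17:79701537-79715061, minus strand) was at 2.67 to 9.29 CPM in placebo-treated and at 2.21 to 8.0 CPM in anle138b-treated mice. Its log2 fold change over all mice was 0.01 (SE 0.15), a fold of 1.01 with a 95% interval of 0.812 to 1.25. It ran from -0.20 (SE 0.28) in post-plaque WT to 0.30 (SE 0.39) in pre-plaque APPPS1ΔE9 mice. The leptomeningeal markers, among them Col1a1 and Slc6a13, moved with it, with a correlation of 0.70 over 38 mice as deviations from the group means. With those markers as a covariate no member was called between chows over all mice either, where 0.011% of 18232 genes were.

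**Figure D3:**
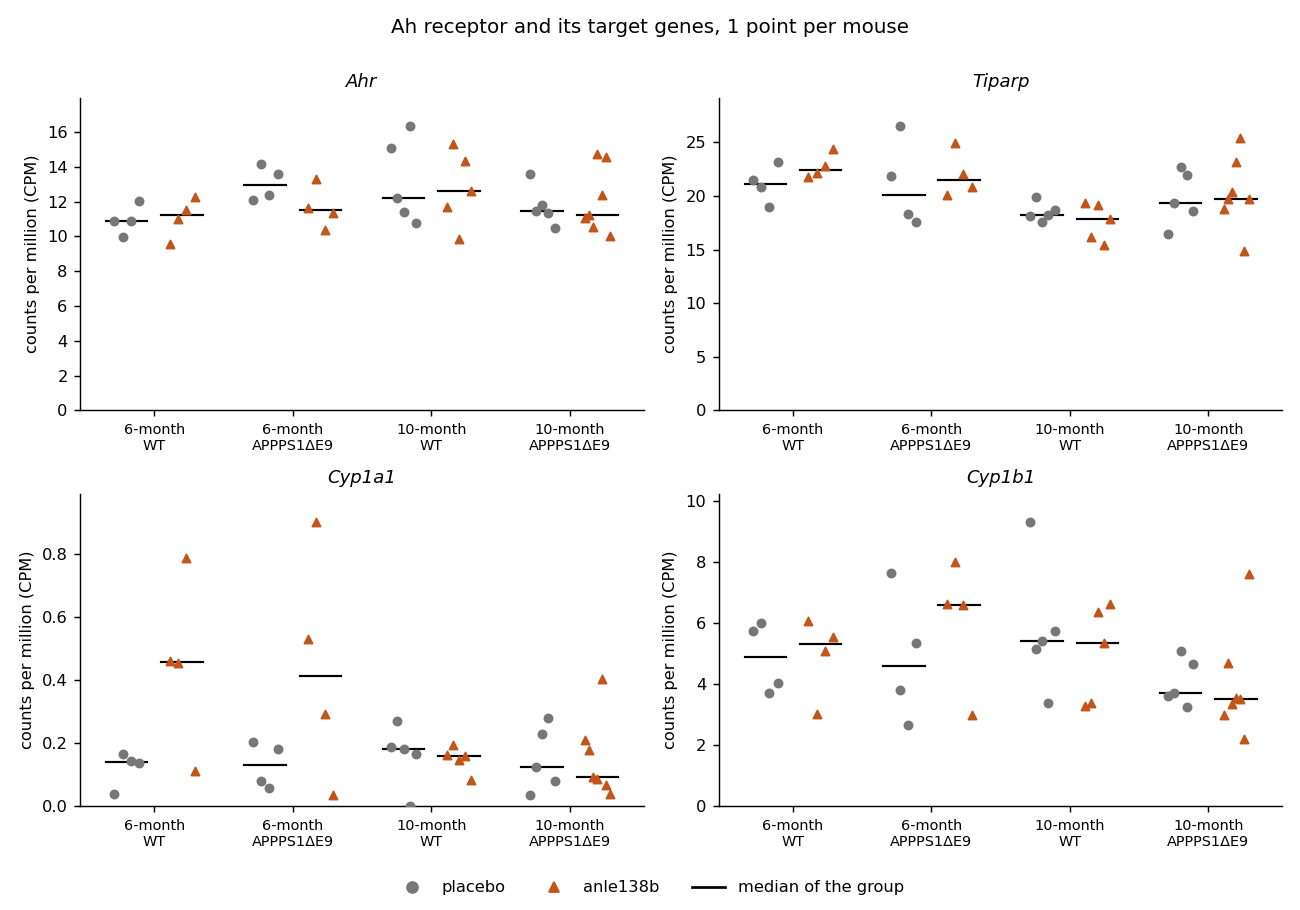
Levels in CPM of Ahr, Tiparp, Cyp1a1 and Cyp1b1 in each mouse, by cohort and genotype, for placebo (circles) and anle138b (triangles), with the group median as a bar. Cyp1a1 is above 0.29 CPM in 3 of 4 anle138b-treated mice of each genotype at 6 months, and the chows overlap in the other panels.

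GCLC is the catalytic and GCLM the modifier subunit of glutamate-cysteine ligase, the first step of glutathione synthesis. Gclc (ENSMUSG00000032350, chr9:77754535-77794485, plus strand) was at 66.6 to 75 CPM in placebo-treated and 66.4 to 76.0 CPM in anle138b-treated mice. Its log2 fold change over all mice was 0.01 (SE 0.02), with a 95% interval of the fold of 0.978 to 1.03. Gclm (ENSMUSG00000028124, chr3:122245557-122270732, plus strand) was at 47.3 to 65.2 CPM in placebo-treated and 45.7 to 59.2 CPM in anle138b-treated mice. Its log2 fold change was -0.01 (SE 0.04), with a 95% interval of the fold of 0.945 to 1.05. Gclm overlaps the opposite-strand transcript Gm17494 and the processed pseudogene Gm6061, which could share reads with it.

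Sulfiredoxin, encoded by Srxn1, repairs oxidised peroxiredoxins, and Txnrd1 encodes the cytosolic thioredoxin reductase. Srxn1 (ENSMUSG00000032802, chr2:152105516-152111376, plus strand) was at 74.6 to 125 CPM in placebo-treated and 76.8 to 108.3 CPM in anle138b-treated mice. Its log2 fold change over all mice was -0.01 (SE 0.05), with a 95% interval of the fold of 0.932 to 1.06. Txnrd1 (ENSMUSG00000020250, chr10:82833951-82897712, plus strand) was at 66.9 to 78.8 CPM in placebo-treated and 62.2 to 89.3 CPM in anle138b-treated mice. Its log2 fold change was 0.00 (SE 0.03), with a 95% interval of the fold of 0.962 to 1.04. Of Gclc, Gclm, Srxn1 and Txnrd1, Srxn1 had the widest interval. Eid3 lies within Txnrd1 on the same strand.

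HMOX1, heme oxygenase 1, degrades heme and is induced by oxidants, heme and inflammatory signals. Hmox1 (ENSMUSG00000005413, chr8:75093621-75100589, plus strand) was at 4.67 to 9.08 CPM in placebo-treated and 4.91 to 11.4 CPM in anle138b-treated mice. Its log2 fold change for anle138b over all mice was -0.01 (SE 0.08), with a 95% interval of the fold of 0.894 to 1.1. The interaction of chow with genotype was not called for any member, with 0 of 10 members in the pre-plaque and 0 of 9 in the post-plaque cohort at an adjusted p under 0.1 or an unadjusted p under 0.05, where 7.99% and 2.3% of all genes were at the latter.

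**Figure D4:**
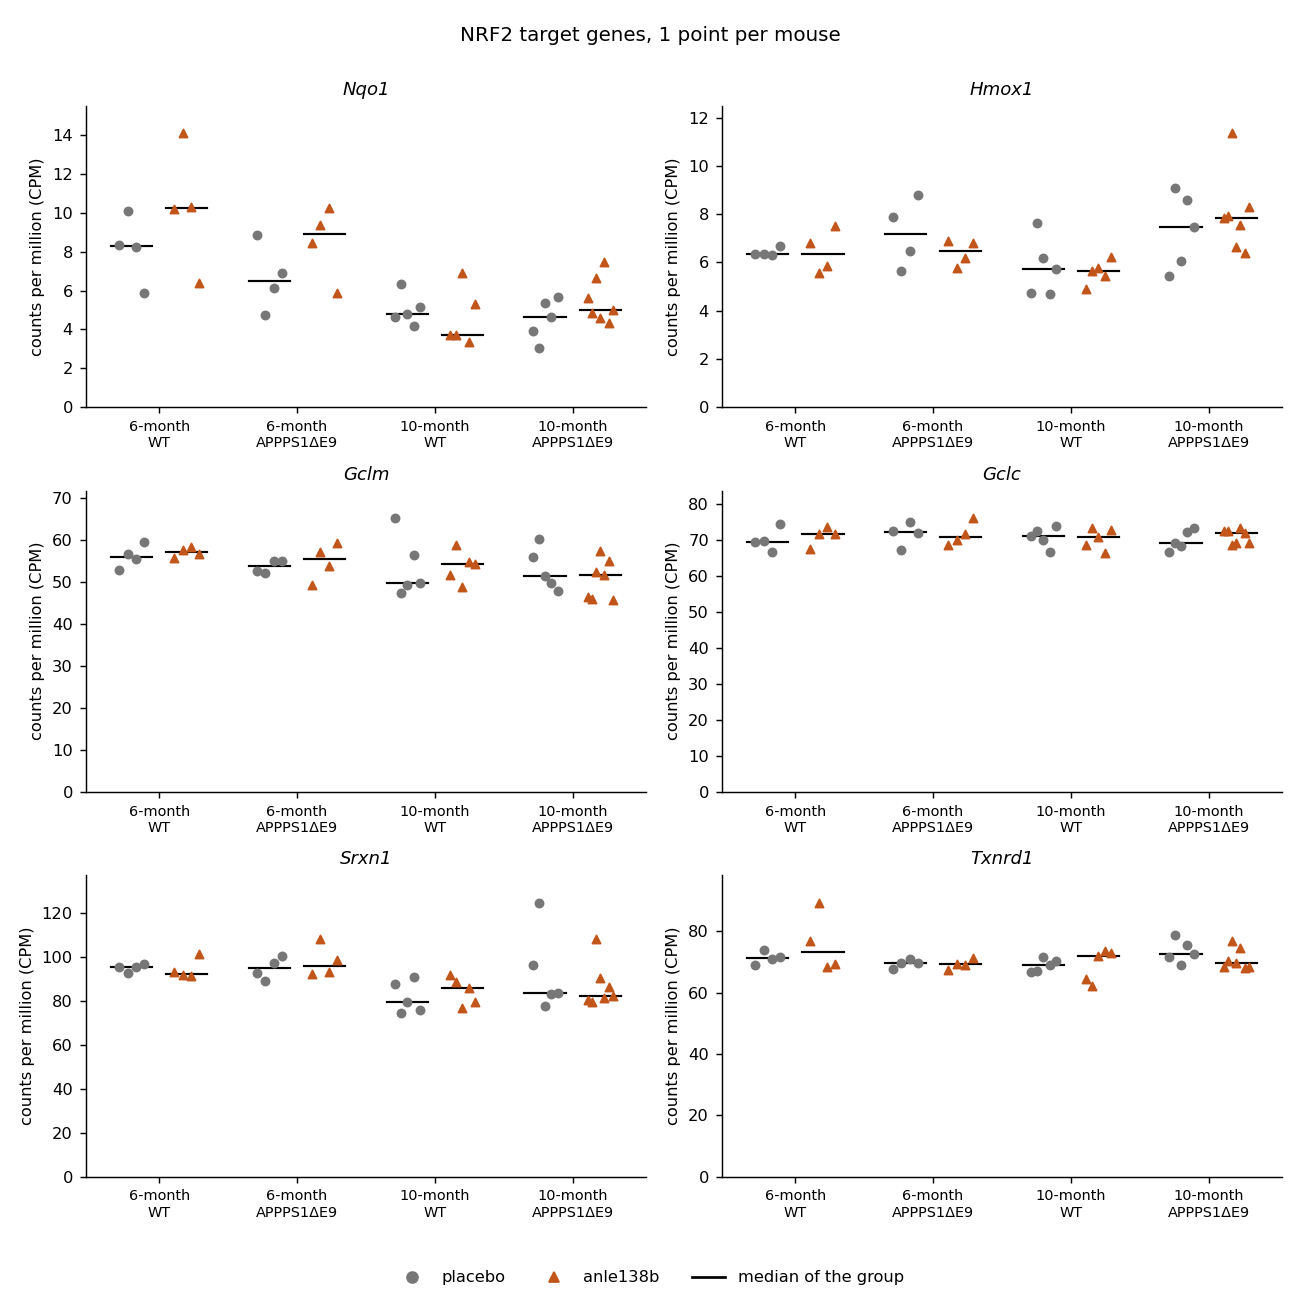
Levels in CPM of Nqo1, Hmox1, Gclm, Gclc, Srxn1 and Txnrd1 in each mouse, by cohort and genotype, for placebo (circles) and anle138b (triangles), with the group median as a bar. Gclm, Gclc, Srxn1 and Txnrd1 vary least across the groups, and the group medians of Nqo1 are higher at 6 months. The medians of Hmox1 are higher in 10-month APPPS1ΔE9 than in 10-month WT mice, and the genotypes overlap on placebo.

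Between genotypes, Hmox1 was the member that passed the test over all mice. The genotypes shared no lane within a cohort and chow, and no genotype fit included lane. A difference between genotypes, in any gene, therefore cannot be told apart from one between lanes. In post-plaque mice on anle138b it was at 4.91, 5.63, 5.75, 5.43 and 6.23 CPM in WT and ran from 6.39 through a median of 7.85 to 11.4 CPM in the 7 APPPS1ΔE9 mice. On placebo it was at 4.74, 7.62, 6.17, 4.67 and 5.73 CPM in WT and 5.44, 9.08, 6.07, 8.58 and 7.47 CPM in APPPS1ΔE9. The genotypes did not overlap on anle138b, where 0.85% of all genes did not overlap, and they overlapped on placebo. In the pre-plaque cohort it was at 5.57 to 7.50 CPM in WT and 5.63 to 8.78 CPM in APPPS1ΔE9 mice, with wide overlap.

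Over all mice Hmox1 was higher in APPPS1ΔE9 than in WT by 0.28 on the log2 scale (SE 0.08, adjusted p = 0.0859), the single member called of 10, with 1.63% of 18232 genes called. It was also the single member at an unadjusted p under 0.05, beside 8.69% of all genes. Leaving out any of 26 of the 38 mice took the adjusted p over 0.1, up to 0.178, with log2 differences between 0.24 and 0.31. The cohorts were also fitted alone, a choice made after the values were seen. In the 10-month mice alone the difference was 0.43 (SE 0.11, adjusted p = 0.0669), with 1.56% of genes called. In the 6-month mice alone it was 0.07 (SE 0.09, adjusted p = 0.797), with 0.172% called. The difference between cohorts, in a test added after the values were seen too, was 0.36 (SE 0.15, unadjusted p = 0.0248, adjusted p = 0.603). Txnrd1, at 0.15 (SE 0.06), and Ahr, at -0.28 (SE 0.12), were the other members at an unadjusted p under 0.05 in that test, beside 7.51% of all genes. DESeq2 called Hmox1 over all mice (adjusted p = 0.0558, 1.78% of genes called) and in post-plaque mice on anle138b (adjusted p = 0.0399, 1.1% called). With Y-linked expression as a covariate it was called in both as well, at adjusted p = 0.0531 with 1.84% of genes and at adjusted p = 0.0184 with 1.59% of genes. Among the 26 mice with Y-linked expression the genotype difference was 0.25 (SE 0.10, adjusted p = 0.283). By group, it was 0.51 on post-plaque anle138b (SE 0.13, unadjusted p = 0.00214, adjusted p = 0.227), 0.33 on post-plaque placebo (SE 0.18, adjusted p = 0.99997), 0.16 on pre-plaque placebo (SE 0.13) and -0.01 on pre-plaque anle138b (SE 0.12). No other member was called, with 0 of 9 or 10 members called by edgeR in each single genotype comparison. The share of all genes called was 0.0715% for pre-plaque placebo, 0.047% for pre-plaque anle138b, 0.324% for post-plaque placebo and 0.723% for post-plaque anle138b. At an unadjusted p under 0.05 there was 1 member on pre-plaque placebo (Ahr), 0 on pre-plaque anle138b, 0 on post-plaque placebo and 1 on post-plaque anle138b (Hmox1), beside 11.1%, 5.64%, 4.1% and 5.78% of all genes. The microglia markers were higher in APPPS1ΔE9 mice over the same comparison, with 4 of 6 called and a median log2 difference of 0.35, as were 5 of the 6 plaque microglia markers, with a median of 1.88, against 0.00 for all genes. Of the 6 astrocyte markers 1 was called, with a median of -0.02, and their sum in post-plaque mice was 1480 to 2139 CPM in WT and 1762 to 2629 CPM in APPPS1ΔE9. None of the oligodendrocyte or hippocampal neuron markers was called. Across the 38 mice, as deviations from the group means, Hmox1 had a correlation of 0.63 with the microglia, 0.55 with the oligodendrocyte, 0.52 with the hippocampal neuron, 0.52 with the astrocyte and 0.33 with the plaque microglia markers. The part of these cell types in the Hmox1 difference was not tested.

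Ahr stood higher in pre-plaque APPPS1ΔE9 than in WT mice on placebo, at 12.1, 14.2, 12.4 and 13.6 CPM against 10.9, 9.95, 10.9 and 12 CPM. These WT mice were those with conflicting genotype labels, and they were on another lane than these APPPS1ΔE9 mice. Y-linked expression was present in 4 of 4 of these APPPS1ΔE9 mice and in 1 of 4 of these WT mice. The groups did not overlap, as was so for 5.86% of all genes, while no member's genotypes were apart on pre-plaque anle138b or post-plaque placebo, where those of 3.29% and 1.39% of all genes were, and the log2 difference of 0.26 (SE 0.09, unadjusted p = 0.0149, adjusted p = 0.387) was not called. With Y-linked expression as a covariate, this difference of Ahr was 0.26 (SE 0.15, unadjusted p = 0.102, adjusted p = 0.995). Without the covariate it was 0.08 (SE 0.10) on anle138b, and -0.17 (SE 0.12) and -0.08 (SE 0.13) in the post-plaque cohort on placebo and on anle138b. For Cyp1b1 the log2 difference, APPPS1ΔE9 less WT, was -0.51 in post-plaque mice on placebo (SE 0.24, unadjusted p = 0.0540, adjusted p = 0.99997), and the interval over all mice ran from -0.49 to 0.15. For Gclc the genotype difference over all mice was 0.01 (SE 0.02), and for Txnrd1 0.00 (SE 0.03).

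**Figure D5:**
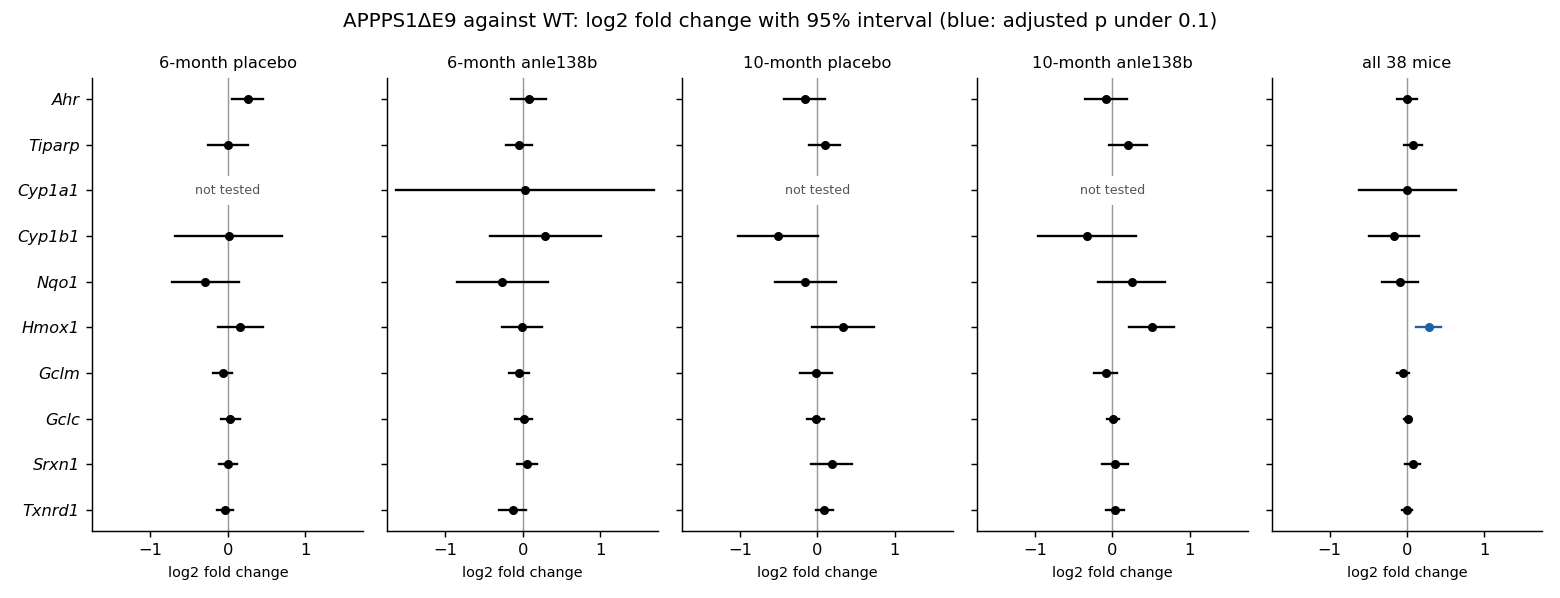
Log2 fold change of APPPS1ΔE9 over WT for the 10 genes (points) with its 95% interval (lines), for each cohort and chow and for all 38 mice, with the called gene in blue. Hmox1 lies to the right of 0 at 10 months and is called over all mice at 0.28, and the intervals of most other genes cross 0.

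Of 70 other genes listed for partners and regulators of both factors, glutathione, thioredoxin and NADPH metabolism, heme and iron, further targets, the ATF4 stress response and other xenobiotic sensors, 58 to 60 were tested in each comparison. edgeR called 0 of them in each of the 5 comparisons. At an unadjusted p under 0.05 there were 2 of 58 (3.45%) in pre-plaque WT, 8 of 59 (13.6%) in pre-plaque APPPS1ΔE9, 3 of 58 (5.17%) in post-plaque WT, 1 of 60 (1.67%) in post-plaque APPPS1ΔE9 and 3 of 60 over all mice. The shares of all genes were 1.85%, 13.1%, 1.25%, 1.48% and 3.53% in the same order. The median log2 difference of the tested genes was between 0.00 and 0.04 in each.

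Among the genes at an unadjusted p under 0.05, those with the largest differences were named by the fixed rule. Maff, a small MAF partner of NRF2, had a log2 difference of 0.80 (SE 0.31) in pre-plaque WT mice and of 0.29 (SE 0.12) over all mice. Osgin1, an NRF2 target that restrains growth, was at 0.78 (SE 0.35) in pre-plaque WT mice. Both genes were low in level. In pre-plaque WT mice Maff had means of 0.504 CPM on placebo and 0.886 CPM on anle138b, and Osgin1 of 0.511 and 0.895 CPM. The means of the other placebo groups were higher, at 0.731 to 0.918 CPM for Maff and 0.587 to 0.810 CPM for Osgin1. Pir, which encodes the iron-binding nuclear protein pirin, was at 0.16 (SE 0.05) over all mice. In pre-plaque APPPS1ΔE9 mice, Arnt, the nuclear partner of AhR, was at -0.30 (SE 0.08), while Mgst1, a microsomal glutathione transferase, was at 0.37 (SE 0.15) and Ppara, a fatty acid receptor, at 0.41 (SE 0.16). In post-plaque WT mice, the aldo-keto reductase gene Akr1b8 was at -0.64 (SE 0.25), the efflux transporter gene Abcg2 at -0.19 (SE 0.07) and Atf4 at 0.13 (SE 0.06). Blvra, biliverdin reductase, was at -0.19 (SE 0.07) in post-plaque APPPS1ΔE9 mice, and Por, the electron donor of cytochromes P450, at -0.07 (SE 0.03) over all mice. The adjusted p of these values was between 0.280 and 0.99996.

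The members did not vary as 1 block. Over the 45 pairs of members, the correlation of log2 CPM deviations from the group means across the 38 mice had a median of 0.01 and ran from -0.50, for Ahr and Nqo1, to 0.67, for Ahr and Gclm. Gclm and Srxn1 had 0.64, and Cyp1a1 and Nqo1, which both stood with the choroid plexus sum, had 0.48. Both genes of a pair were read from the same libraries, lanes and dissections, and the values are descriptions.

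The genes most like each member by the same measure differed from member to member. Tiparp was closest to the immediate early genes Nr4a1, at 0.81, and Fos, at 0.77, followed by Arl5b. Cyp1b1 was closest to Gjb2, at 0.88, Serping1, at 0.87, and Slc6a12, at 0.87, and Gjb2 is a connexin of the meninges. Nqo1 was closest to Car14, Atp6v0e and Elovl7, at 0.88 each, and Hmox1 to Blnk, Sh3bgrl3 and Paqr9, at 0.77 to 0.78. Ahr was closest to 9430021M05Rik, Satb1 and Etl4, at 0.83 to 0.86, Gclm to Rnf11, Eif5a2 and Pnpla8, at 0.88 to 0.89, and Srxn1 to Trnp1, Rtn4rl1 and Lynx1, at 0.83 to 0.86. Gclc was closest to Capza2, Nkain2 and Sntg1, at 0.75 to 0.78, and Txnrd1 to Top1, Elk3 and Cdk12, at 0.74 to 0.76. Cyp1a1 had the least similar neighbours, Sytl3, Rrh and Cldn9, at 0.67 to 0.70, of which Sytl3 and Cldn9 had median levels of 0.0992 and 0.117 CPM.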

How the data were processed

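RNA from the hippocampus of 38 mice was sequenced after TruSeq mRNA library preparation. The authors aligned reads with STAR (mm10), assigned them to genes with HTSeq (intersection, nonempty), and deposited raw read counts of 48709 genes per mouse, without normalization. Whether counting used strand, and the annotation release, are not given in the sources used here. Groups came from the sample titles. A check of the genotype labels on transgene expression is not reported here. Total counts ran from 15847985 to 31895808, so precision is limited for genes such as Cyp1a1 with few reads.

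Symbols, coordinates and exon lengths came from GENCODE M21 (GRCm38), which held 48349 of the genes, and promoters from RefSeq GRCm38.p6. Genes passing filterByExpr (minimum count 10, minimum total 15) were TMM-scaled, and edgeR's quasi-likelihood test was applied, with Benjamini-Hochberg adjustment over all genes and a threshold of 0.1. Standard errors were derived from the log2 fold change and its F statistic, and intervals are 95%. Versions were R 4.3.3, edgeR 4.0.16 and DESeq2 1.42.0. The fits were tested on simulated data. CPM used TMM library sizes over all mice, and the log2 CPM behind correlations used a prior count of 2. No label says whether the mice of a group shared a litter or cage.

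The members and all gene lists were chosen with earlier results of these data known. The genes named were all 10 members, the wider-list genes past the threshold or up to 2 highest and 2 lowest per chow comparison at an unadjusted p under 0.05, and the 3 genes most like each member. Alternatives were DESeq2, RLE size factors, no filter, a threshold of 0.05, Y-linked expression as a covariate, the replicate number as a block, a joint fit of the 4 groups in a cohort, lanes, marker levels as covariates, and each mouse left out in turn. Single cohorts, mice with Y-linked expression for the genotype comparison, and high or low choroid plexus markers were added after the values were seen. So were the test of genotype by cohort and the fit of chow by choroid plexus markers.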

Additional observations from a re-analysis of the deposited data

Results flagged for a closer look

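Of 80 combinations of member and group, 4 held a mouse whose gap to its nearest neighbour, as a share of the group's range, passed Dixon's limit, and chance gives about 1 in 20. Srxn1 was at 108.3 CPM in anle138b-treated post-plaque APPPS1ΔE9 mouse 93, against 79.6 to 90.3 CPM in the 6 others (0.590). It was at 101 CPM in anle138b-treated pre-plaque WT mouse 83, against 91.5 to 93 CPM (0.843). Hmox1 was at 6.69 CPM in placebo-treated pre-plaque WT mouse 77, against 6.32 to 6.36 CPM (0.890). Cyp1a1 had no read in placebo-treated post-plaque WT mouse 55, against 0.166 to 0.272 CPM in the others (0.757). Mice 77 and 83 also had low choroid plexus sums within their groups, at 182 and 251 CPM.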

How the results depend on the processing

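The number of members called for anle138b against placebo stayed at 0 under every alternative and with any mouse left out, for each cohort and genotype, for all mice and for the interactions of chow with genotype and cohort. For APPPS1ΔE9 against WT over all mice, where 1 member (Hmox1) was called, the number was 0 at an adjusted p under 0.05, with the replicate block, in the 6-month mice alone and in the mice with Y-linked expression alone, and between 0 and 1 with single mice left out (1 in 12 of 38 fits). The mice whose omission took the call away were 5 of 7 post-plaque APPPS1ΔE9 mice on anle138b and 3 of 5 on placebo, 5 of 5 post-plaque WT mice on anle138b and 4 of 5 on placebo, 3 of 4 pre-plaque WT mice on placebo, and 2 of 4 in each of the other pre-plaque groups. It stayed at 1 with DESeq2, RLE size factors (adjusted p = 0.0994), no filter and Y-linked expression as a covariate. The number was also 1 in the 10-month mice alone. Like the 6-month mice and the mice with Y-linked expression, this subset was taken after the values were seen. In post-plaque mice on anle138b the number was 1, again Hmox1, with DESeq2 (adjusted p = 0.0399) and with Y-linked expression as a covariate (adjusted p = 0.0184), against 0 otherwise. The causes were not tested. The replicate numbers do not pair the mice, since in no comparison did all same-numbered mice deviate together with r over 0.1. With the replicate block, Hmox1 over all mice was 0.28 on the log2 scale (adjusted p = 0.106), and 229 genes were called in place of 298. The block lowered the calls from 55 to 25 genes in post-plaque placebo mice and from 124 to 20 on anle138b, none of them a member in either fit. Cyp1a1, at 0 to 29 reads per mouse, is the member most limited by depth, and with each of the 38 mice left out in turn its log2 difference over all mice ran between 0.67 and 0.98. Counts over all genes moved by over 1.5 times in many comparisons. For anle138b in pre-plaque APPPS1ΔE9 mice, 9 genes became 204 with DESeq2, 120 without the filter, 71 with the Y-linked covariate and 3 in the joint fit. Over all mice, 2 genes became 0 with DESeq2, with the block, in mice with Y-linked expression, in either cohort and in mice with high choroid plexus markers, 1 with low markers, 8 without the filter, 40 with lane as a covariate and 305 on lanes holding both chows. On lane 4, 0 genes became 1 in pre-plaque WT mice. DESeq2 called 22 genes for chow by genotype at 6 months, 2 at 10 months and 2 for chow by cohort, each in place of 0. For genotype on pre-plaque placebo, 12 genes became 139 with DESeq2, 110 without the filter, 35 in the joint fit and 4 with the Y-linked covariate, and on pre-plaque anle138b 8 became 47 with DESeq2 and 13 with the block. On post-plaque placebo, 0.324% of genes became 0.636% with DESeq2, and 55 genes became 14 with the Y-linked covariate. On post-plaque anle138b, 124 became 189 with DESeq2, 272 with the Y-linked covariate and 77 at an adjusted p under 0.05. Over all mice, 298 became 469 without the filter, 30 in 6-month mice and 706 in mice with Y-linked expression. With single mice left out, the calls ran from 6 to 317 genes for anle138b in pre-plaque APPPS1ΔE9 mice, 1 to 4 over all mice, 0 to 2 in pre-plaque WT mice, 0 to 22 for chow by genotype at 6 months, and 0 to 1 for chow by cohort. For genotype they ran from 6 to 205 on pre-plaque placebo, 9 to 44 on pre-plaque anle138b and 63 to 151 on post-plaque anle138b.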
